A study of Homo sapiens and Mus musculus with 36 samples.

Results

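EPZ-5676 (pinometostat), a small molecule that occupies the methyl-donor pocket of the histone methyltransferase DOT1L, was compared with its solvent DMSO in HuH-7, an established human hepatocellular carcinoma cell line. The comparison rests on 6 of the 36 RNA sequencing libraries of the series, chosen by their labels: 3 libraries of wild-type HuH-7 cells treated with EPZ-5676 for 7 days and 3 of wild-type HuH-7 cells given DMSO. The labels state neither the inhibitor's dose nor the time in DMSO. The other libraries come from cells edited with guide RNAs, in HuH-7 and in the mouse lines Hepa1-6, Hep53.4 and LLC. Of these, the HuH-7 libraries with the control guide sgNeg2 (2) or with the DOT1L guides sg1 (2) and sg2 (2), and the same 3 groups under interferon (labelled IFN, 2 libraries each), are used for a comparison with DOT1L knockout. All groups share the line and the culture medium. The labels do not say whether replicates were separate cultures or whether edited cells were clones, so p-values measure the spread between these libraries, which may be technical.

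DOT1L methylates lysine K79 of histone H3, a mark laid over the bodies of transcribed genes, and no other human enzyme is known to place it. The enzyme is brought to chromatin by partners such as MLLT3 and MLLT1, readers of acylated histones shared with elongation complexes, and by MLLT10, which stimulates methylation. In leukaemias with KMT2A (MLL) fusions it sustains HOXA and MEIS1 expression, the setting for which EPZ-5676 was developed. The compound blocks catalysis and leaves the gene intact, so the DOT1L transcript is no measure of target engagement, and no histone mark was measured here.

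Each library held between 48912627 and 58628528 counts. The deposited tables list 15899 gene symbols, all with at least 1 count in each of the 6 libraries, and 15023 passed the filter on low counts. A gene with no read in even 1 library is therefore unlisted: of the 26457 symbols in the guide tables, 10558 are not listed here, 133 of them with at least 1 CPM (counts scaled to 1000000 per library) and 36 with at least 5 CPM in the control-guide libraries without interferon. All 15 hepatocyte markers examined were measured, with mean levels from 34.8 to 5018 CPM, and their summed level was 18950 to 19050 CPM with DMSO and 17095 to 17148 CPM with EPZ-5676. Of 22 leukocyte markers 9 were measured, with a sum of 76.7 to 81.1 CPM against 86.1 to 89.9 CPM, most of it the lysosomal gene CD68; PTPRC, which defines leukocytes, was not listed. The 6 measured of 13 fibroblast markers summed to 113 to 117 CPM and 104 to 112 CPM, and the 4 of 12 endothelial markers to 5.39 to 7.31 CPM and 9.61 to 11.2 CPM. The 10 measured of 12 cholangiocyte markers summed to 348 to 355 CPM and 355 to 363 CPM. ACTA2 and DCN, and CDH5 and VWF, were among those not measured.

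EPZ-5676 moved many genes, most by little. By edgeR's quasi-likelihood test with Benjamini-Hochberg adjustment, 2274 of 15023 genes rose (15.1%) and 2793 fell (18.6%). The rises were larger. Their median log2 change was 0.36, against -0.15 among the falls, and 415 genes rose by at least 2-fold while 14 fell as much. Where the mean reached 5 CPM, 39 genes rose by at least 2-fold and 0 fell as much by edgeR's adjusted test, 1 at an unadjusted p below 0.05 and 2 by DESeq2. The genes that fell had a median level of 85.5 CPM and those that rose one of 13.0 CPM. Among the gene lists examined, rises were most frequent in chemokines and cytokines (16 of 24) and cell surface antigens (13 of 20), and falls in glycolysis and hypoxia (26 of 40). Members of all lists were chosen with earlier results of these data known, which bears on such a ranking. The shares of 15.1% and 18.6% are the background for the counts of each gene list below, since a list with shares near them is no result about its members. The share that fell went with the level: it was 0.654% under 1 CPM, 25.5% from 20 to 100 CPM and 51.4% over 100 CPM. No list was set against a share matched to the level of its members. The counts cover tested members, since genes unlisted or below the filter have no value here.

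**Figure D1:**
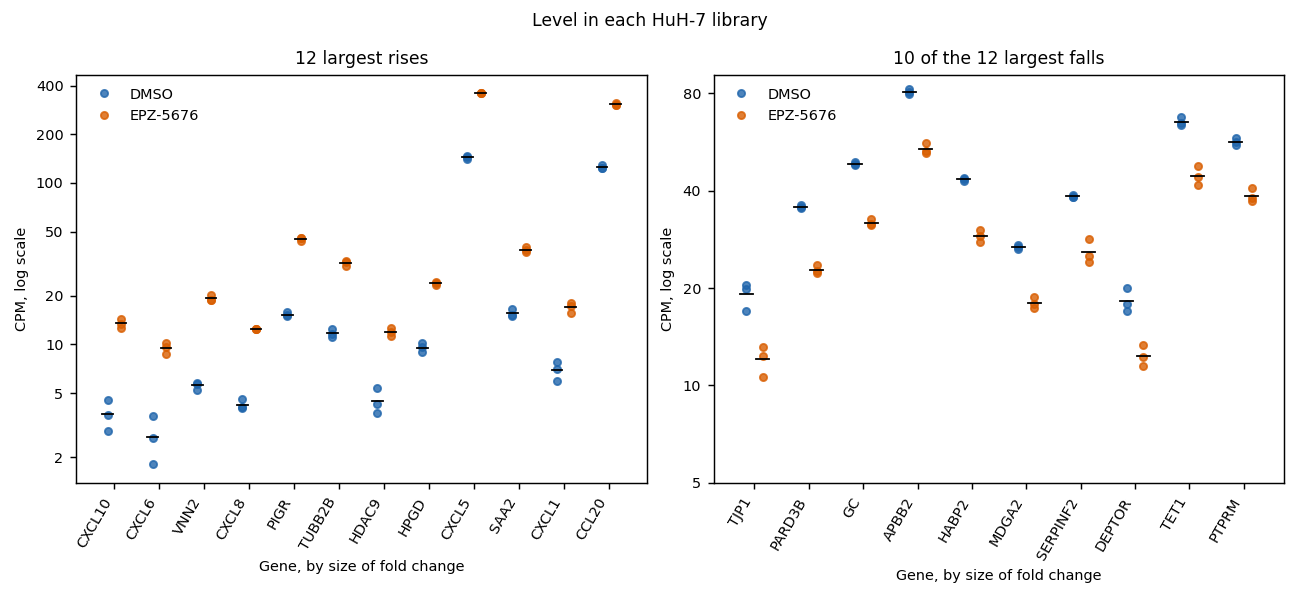
Level of the 12 genes with the largest rises (left) and 10 of the 12 with the largest falls (right) among called genes with at least 5 CPM, in each of the 3 DMSO (blue) and 3 EPZ-5676 (orange) libraries, in CPM on log axes; black bars are group means. Genes were chosen with no overlap between the groups as a condition; CXCL5 goes from between 142 and 148 CPM with DMSO to between 359.8 and 360.2 CPM with EPZ-5676.

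Where the mean reached 5 CPM, chemokines led the rises. Of the 12 largest increases picked at that level by the rule for named genes, 6 were in chemokine genes. These were CXCL10, which attracts T and NK cells through CXCR3, the neutrophil attractants CXCL6, CXCL8, CXCL5 and CXCL1, and CCL20, the ligand of CCR6. Some genes at lower levels rose by more, among them HAS2 and CD109, which are given below. CXCL10 was at 2.92, 3.64 and 4.54 CPM with DMSO and 14.4, 13.4 and 12.7 CPM with EPZ-5676. This 3.64-fold rise had a log2 change of 1.87 (SE 0.12, adjusted p = 2.0e-19). CXCL6 was at 2.63, 3.61 and 1.82 CPM with DMSO and 10.2, 8.77 and 9.64 CPM with EPZ-5676, a log2 change of 1.83 (SE 0.18, adjusted p = 3.6e-07). CXCL8 was at 4.08, 4.61 and 4.02 CPM with DMSO and 12.4, 12.4 and 12.5 CPM with EPZ-5676, a log2 change of 1.56 (SE 0.11, adjusted p = 8.2e-21). The 3 treated CXCL8 values were almost equal. These 12 genes were chosen on no overlap between the groups, so that all treated values lie above the controls is set by the rule. CXCL1 was at 7.76, 5.90 and 7.05 CPM with DMSO and 15.6, 18.1 and 17.4 CPM with EPZ-5676, 2.47-fold higher. CXCL5 and CCL20 stood at higher counts, where the replicates were tighter. CXCL5 was at 148, 142 and 145 CPM with DMSO and 360.2, 359.9 and 359.8 CPM with EPZ-5676, and its log2 change was 1.31 (SE 0.02, adjusted p = 3.1e-58). CCL20 was at 129, 124 and 124 CPM with DMSO and 311, 304 and 305 CPM with EPZ-5676, and its log2 change was 1.29 (SE 0.02, adjusted p = 7.7e-56). For both genes each treated library exceeded each control library by more than the whole spread within a group.

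The sequence before the start sites of these 6 genes is shown because they moved together and because promoters of inflammatory chemokines are known targets of NF-kappaB. Windows are from RefSeq on GRCh38.p14, 5′ to 3′ on the gene's strand. Capitals mark each match to GGNNNTTCC on either strand, a simplified form of the NF-kappaB site, and in CXCL10 also the 10 bases that read GAAA, any 2 bases and GAAA again, a simplified interferon-stimulated response element.
CXCL8 (chr4:73740439-73740518, + strand): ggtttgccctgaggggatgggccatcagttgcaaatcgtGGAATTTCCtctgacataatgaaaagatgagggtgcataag
CXCL6 (chr4:73836548-73836627, + strand): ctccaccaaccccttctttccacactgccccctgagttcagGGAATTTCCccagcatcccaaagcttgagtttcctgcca
CXCL5 (chr4:73998728-73998807, - strand): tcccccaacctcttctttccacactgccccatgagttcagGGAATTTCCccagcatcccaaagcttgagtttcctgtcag
CXCL1 (chr4:73869283-73869362, + strand): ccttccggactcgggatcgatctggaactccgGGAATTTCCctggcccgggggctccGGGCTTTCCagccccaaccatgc
CCL20 (chr2:227813722-227813801, + strand): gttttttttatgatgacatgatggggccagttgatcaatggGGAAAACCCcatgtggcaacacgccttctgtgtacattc
CXCL10 (chr4:76023588-76023727, - strand): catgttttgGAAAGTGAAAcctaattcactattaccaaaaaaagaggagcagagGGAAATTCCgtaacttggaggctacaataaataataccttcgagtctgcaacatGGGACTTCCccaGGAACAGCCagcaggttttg
CXCL8, CXCL6, CXCL5 and CXCL1 carry the same 9 letters, GGAATTTCC, beginning 91, 89, 90 and 78 bases before the start. Over the 250 bases before the start, GGNNNTTCC occurred in 17.1% of all 35116 promoter windows and in at least 1 window of 25.02% of the 10853 tested genes with an entry. The share was 26.3% among genes that rose and 25.3% among genes that fell. It was 64.3% among the 14 chemokines and cytokines that rose and had an entry, and 64.7% among all 17 tested members with one. A match is a string of letters and not evidence of binding.

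Of the 39 chemokines and cytokines in the list these 6 belong to, 13 were not listed, 2 were below the filter and 24 were tested. Of those tested 16 rose, these 6 included, and 1, LIF, fell; the median log2 change was 0.95, beside 0.01 over all genes tested. CXCL8, CXCL6, CXCL1, CXCL5, CXCL3 and CXCL2 lie in 1 stretch of chromosome 4 (GRCh38, 73740506 to 74099293). All 6 rose, with log2 changes between 0.85 for CXCL3 and 1.83 for CXCL6. Only tested genes were looked up in this stretch, so any gene between them without a value is not covered. Paralogues in this cluster, CXCL1, CXCL2 and CXCL3 in particular, are similar enough that the authors' counting, which is not described in the sources used here, could have moved reads between them. IL32, a cytokine gene, was at 5.24, 5.55 and 5.37 CPM with DMSO and 10.7, 9.28 and 11.6 CPM with EPZ-5676, a log2 change of 0.96 (SE 0.11, adjusted p = 1.6e-11). IL33, an alarmin released from damaged cells, was at 1.94, 1.27 and 1.54 CPM with DMSO and 3.37, 3.03 and 3.13 CPM with EPZ-5676. CX3CL1, a membrane-bound chemokine, was at 24.4, 23.9 and 22.6 CPM with DMSO and 32.3, 32.9 and 32.9 CPM with EPZ-5676. In all 3 genes the groups did not overlap, as in 43.8% of all genes tested and 93.9% of those called higher. These 3 were picked for their role after their values were seen.

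Feedback genes of the NF-kappaB pathway rose in part. Of 16 tested, 8 rose (NFKB2, NFKBIA, NFKBIZ, TNFAIP2, TNFAIP3, TNIP1, BIRC3 and TRAF1) and REL fell, with a median log2 change of 0.18. BIRC3, an inhibitor of apoptosis induced by the pathway, was at 11.7, 10.4 and 11.8 CPM with DMSO and 22.3, 21.8 and 21.00 CPM with EPZ-5676. TNFAIP2 was at 71.6, 70.2 and 73.5 CPM with DMSO and 127, 125 and 128 CPM with EPZ-5676, the tightest of the list, with a log2 change of 0.82 (SE 0.03, adjusted p = 2.4e-40). TNFAIP3, the ubiquitin-editing enzyme that shuts the pathway down, was at 36.9, 36.4 and 35.3 CPM with DMSO and 58.3, 56.05 and 56.8 CPM with EPZ-5676. NFKBIA, the inhibitor that holds NF-kappaB in the cytoplasm, was at 23.9, 21.7 and 24.7 CPM with DMSO and 36.9, 34.9 and 33.8 CPM with EPZ-5676. Every treated library lay above every control for these 4 genes. The groups did not overlap, in either direction, in 43.8% of all genes tested, and in 93.9% of those called higher. GGNNNTTCC occurred in the promoter windows of 87.5% of the 8 that rose and of 85.7% of the 14 tested members with an entry. Immediate early genes, which respond within minutes to growth and stress signals, rose in 9 of 22 cases and fell in 1, FOSL2. JUN was at 68.1, 70.4 and 70.3 CPM with DMSO and 100.2, 99.6 and 99.2 CPM with EPZ-5676, a log2 change of 0.52 (SE 0.03, adjusted p = 1.1e-25), and ATF3 was at 4.31, 3.97 and 4.56 CPM with DMSO and 6.22, 7.14 and 7.54 CPM with EPZ-5676.

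Genes of the interferon response were mixed, and most stood at low levels. Of 40 tested interferon-stimulated genes 16 rose and 7 fell, with a median log2 change of 0.18. BST2 (tetherin), which holds budding virus at the cell surface, was at 0.686, 1.04 and 0.451 CPM with DMSO and 2.34, 2.85 and 3.67 CPM with EPZ-5676, a log2 change of 2.03 (SE 0.25, adjusted p = 7.3e-10). HERC6 was at 2.44, 2.78 and 2.89 CPM with DMSO and 6.06, 5.77 and 5.20 CPM with EPZ-5676 and LGALS3BP, a secreted galectin ligand, at 2.63, 2.64 and 3.02 CPM with DMSO and 5.80, 6.70 and 5.94 CPM with EPZ-5676. MX1, an antiviral GTPase, was at 0.762, 1.02 and 0.797 CPM with DMSO and 1.72, 1.85 and 1.60 CPM with EPZ-5676. IFITM3, which blocks viral entry, was at 182, 185 and 189.7 CPM with DMSO and 245, 244 and 251 CPM with EPZ-5676, a log2 change of 0.41 (SE 0.02, adjusted p = 5.6e-26). ISG15 and IFIT1, defining members of the type I response, went the other way. ISG15, a ubiquitin-like modifier, was at 6.00, 6.40 and 6.15 CPM with DMSO and 5.16, 4.75 and 4.28 CPM with EPZ-5676, a log2 change of -0.39 (SE 0.13, adjusted p = 0.014). IFIT1 was at 10.4, 9.60 and 9.38 CPM with DMSO and 7.44, 8.38 and 8.30 CPM with EPZ-5676, a log2 change of -0.28 (SE 0.10, adjusted p = 0.02). ISG15 lost its call without EPZ-5676 replicate 3 (-0.32), and IFIT1 without DMSO replicate 1 (-0.24) or EPZ-5676 replicate 1 (-0.23). IFITM3, ISG15 and IFIT1 were chosen after their values were seen. With scaling that follows the level, described with the dependence on level below, 11 rose and 7 fell. The simplified response element, searched on both strands, occurred in the promoter windows of 84.6% of the 13 that rose and had an entry and of 67.6% of the 34 tested members with one, against 3.26% of all tested genes with an entry.

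The interferon gamma list rose more evenly: 19 of 36 were higher and 4 lower, with a median log2 change of 0.22. Guanylate-binding proteins, GTPases that attack vacuolar pathogens, were among them. GBP1 was at 3.35, 4.69 and 4.26 CPM with DMSO and 7.91, 7.64 and 6.95 CPM with EPZ-5676, GBP2 at 4.38, 3.61 and 3.86 CPM with DMSO and 7.44, 6.20 and 6.97 CPM with EPZ-5676 and GBP3 at 0.934, 0.955 and 1.51 CPM with DMSO and 2.98, 3.05 and 2.82 CPM with EPZ-5676. CASP1, the inflammasome protease, was at 0.496, 0.395 and 0.312 CPM with DMSO and 1.99, 1.21 and 1.70 CPM with EPZ-5676, a log2 change of 2.02 (SE 0.31, adjusted p = 2.0e-07). ICAM1, an adhesion molecule for leukocytes, was at 123, 123 and 127 CPM with DMSO and 167, 172 and 166 CPM with EPZ-5676, a log2 change of 0.44 (SE 0.03, adjusted p = 6.1e-24). ICAM1 was chosen after its values were seen. Among 16 sensors and adaptors of nucleic acid sensing, 4 rose and 3 fell. The kinase gene IKBKE was at 20.2, 20.1 and 20.3 CPM with DMSO and 33.3, 30.9 and 31.3 CPM with EPZ-5676. The adaptor MAVS was at 200.4, 193 and 199.97 CPM with DMSO and 172, 166 and 172 CPM with EPZ-5676, a log2 change of -0.22 (SE 0.02, adjusted p = 6.5e-12).

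Class I antigen presentation rose in part. Of 16 tested genes 5 rose, among them HLA-B, HLA-C, HLA-E and PSME1, and the chaperones CANX and PDIA3 fell. Neither fall was called with scaling that follows the level. HLA-E lost its call without any of 3 libraries and with scaling that follows the level, and HLA-C without EPZ-5676 replicate 2 (0.30). HLA genes share long stretches of sequence and vary between people and reference, so their counts are uncertain. B2M, the invariant light chain, was at 75.5, 70.96 and 79.7 CPM with DMSO and 94.3, 91.4 and 124 CPM with EPZ-5676. EPZ-5676 replicate 3 was the highest of the 6 and the gene did not pass the test (adjusted p = 0.099), though it did by DESeq2 (0.45) and without that library (0.30). It was chosen after its values were seen. In a list of 15 immune checkpoints and ligands of NK receptors, 7 were higher and 1 lower. NT5E (CD73), which makes adenosine from AMP, was at 145, 138 and 142 CPM with DMSO and 242, 234 and 234 CPM with EPZ-5676, a log2 change of 0.74 (SE 0.02, adjusted p = 4.3e-39). CD47, the signal that restrains phagocytes, was at 0.476, 0.831 and 0.780 CPM with DMSO and 1.65, 1.77 and 1.86 CPM with EPZ-5676. ULBP1 and ULBP2 are ligands of the NK receptor NKG2D. ULBP2 was at 13.5, 13.9 and 13.5 CPM with DMSO and 16.9, 16.8 and 18.1 CPM with EPZ-5676 and ULBP1 at 2.04, 1.89 and 1.96 CPM with DMSO and 3.99, 4.06 and 2.77 CPM with EPZ-5676. CD274 (PD-L1) rose from a very low level, 6, 9 and 2 counts with DMSO to 35, 18 and 27 with EPZ-5676 (adjusted p = 0.0021); it was chosen after its values were seen.

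**Figure D2:**
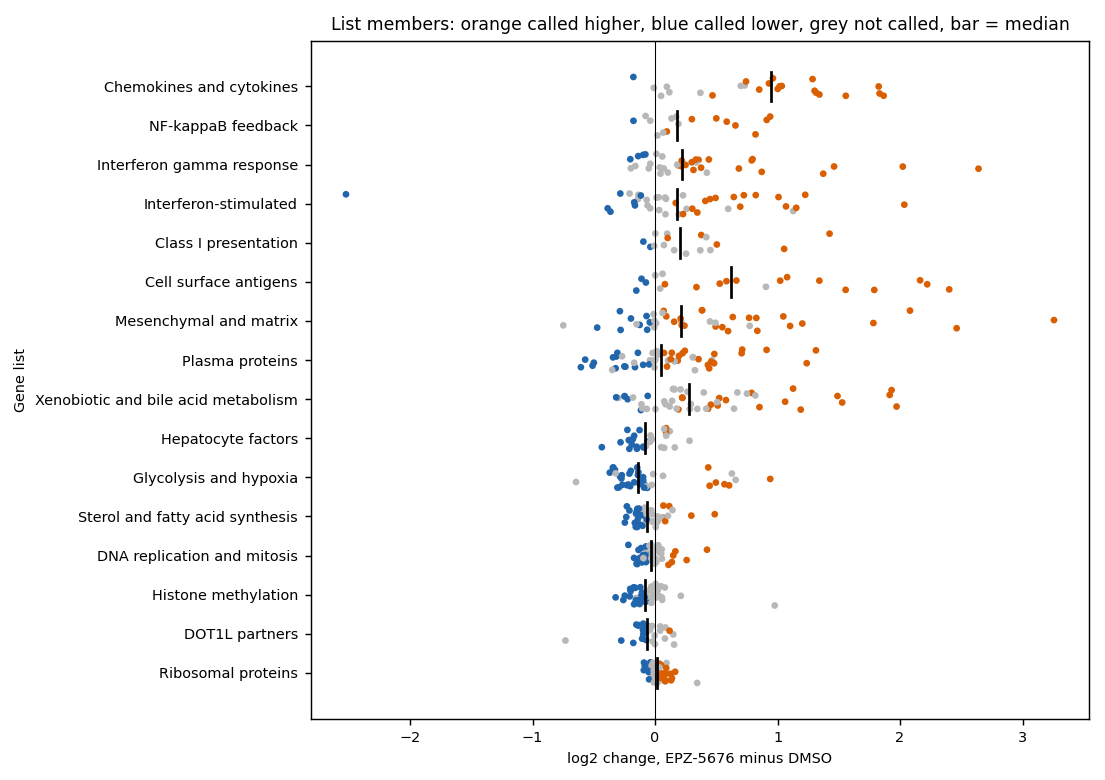
Log2 change (EPZ-5676 minus DMSO) of each tested member of 16 gene lists. Orange points were called higher, blue lower and grey not called, and black bars are list medians, which run from -0.14 for glycolysis and hypoxia to 0.95 for chemokines and cytokines.

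The list of cell surface antigens, which also takes in the secreted enzyme LYZ and the long noncoding RNA UCA1, held 20 tested genes. Of these 13 rose, LYZ and UCA1 included, and 3 fell, with a median log2 change of 0.62. PIGR, which carries IgA into bile and mucus, was at 14.98, 15.1 and 15.8 CPM with DMSO and 45.9, 45.4 and 43.9 CPM with EPZ-5676, 2.94-fold higher. LYZ (lysozyme) was at 84.3, 81.99 and 84.9 CPM with DMSO and 174, 166 and 169.7 CPM with EPZ-5676, a log2 change of 1.02 (SE 0.03, adjusted p = 5.0e-45). CD109, a GPI-anchored co-receptor, was at 1.43, 1.72 and 1.248 CPM with DMSO and 7.92, 7.31 and 7.97 CPM with EPZ-5676, and CEACAM7, an adhesion molecule of the gut lining, at 0.343, 0.540 and 0.277 CPM with DMSO and 1.67, 2.04 and 1.68 CPM with EPZ-5676. The vanins, GPI-anchored or secreted pantetheinases, lie next to each other on chromosome 6 (GRCh38, 132681590 to 132763459). VNN2 was at 5.70, 5.77 and 5.25 CPM with DMSO and 18.8, 18.8 and 20.2 CPM with EPZ-5676, VNN3 at 8.73, 7.64 and 7.78 CPM with DMSO and 17.1, 17.2 and 16.6 CPM with EPZ-5676 and VNN1 at 0.305, 0.415 and 0.208 CPM with DMSO and 1.60, 1.13 and 1.42 CPM with EPZ-5676. All 3 rose, VNN2 by 1.79 on the log2 scale (SE 0.08). LYZ, VNN1 and VNN3 were chosen after their values were seen.

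The other genes among the 12 largest rises at 5 CPM or more have varied roles. TUBB2B, a neuronal beta-tubulin, was at 11.1, 12.5 and 11.6 CPM with DMSO and 32.2, 32.8 and 30.7 CPM with EPZ-5676. Near-identical tubulin genes make its count uncertain. HDAC9, a class II histone deacetylase, was at 4.25, 3.76 and 5.37 CPM with DMSO and 11.9, 11.2 and 12.7 CPM with EPZ-5676. HPGD, which inactivates prostaglandins, was at 9.63, 8.95 and 10.1 CPM with DMSO and 24.03, 23.4 and 24.4 CPM with EPZ-5676. SAA2, an acute phase apolipoprotein, was at 15.2, 14.98 and 16.5 CPM with DMSO and 40.1, 37.3 and 38.7 CPM with EPZ-5676, and its near-identical neighbour SAA1 was at 10.7, 13.5 and 11.9 CPM with DMSO and 28.4, 28.3 and 28.6 CPM with EPZ-5676, so the split of reads between these genes is uncertain. The log2 changes of these genes ran from 1.24 for SAA1 to 1.45 for TUBB2B.

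Of 42 matrix and mesenchymal genes tested, 22 rose and 8 fell, with a median log2 change of 0.21; 22 and 4 with scaling that follows the level. HAS2, which makes hyaluronan, was at 0.534, 0.415 and 0.416 CPM with DMSO and 4.38, 4.23 and 4.50 CPM with EPZ-5676, 9.56-fold higher, a log2 change of 3.26 (SE 0.22, adjusted p = 8.3e-21). The antisense gene HAS2-AS1 overlaps it and also rose (2.64 (SE 0.56, adjusted p = 1.1e-04)); whether counting used strand is not stated, so their reads cannot be told apart. VCAN, a hyaluronan-binding proteoglycan, was at 1.89, 1.64 and 1.58 CPM with DMSO and 6.86, 7.14 and 7.62 CPM with EPZ-5676. COL1A1 was at 1.24, 0.914 and 1.21 CPM with DMSO and 4.47, 3.22 and 3.95 CPM with EPZ-5676 and LUM, a small proteoglycan, at 0.114, 0.125 and 0.104 CPM with DMSO and 0.674, 0.505 and 0.738 CPM with EPZ-5676. TGFBI, an adhesion protein induced by TGF-beta, was at 6.75, 7.37 and 6.43 CPM with DMSO and 16.3, 15.3 and 15.7 CPM with EPZ-5676. CAV1, the coat protein of caveolae, was at 8.20, 10.2 and 11.3 CPM with DMSO and 20.01, 20.4 and 21.04 CPM with EPZ-5676, a log2 change of 1.05 (SE 0.08, adjusted p = 4.7e-15), and VIM, the mesenchymal filament, was at 49.98, 45.5 and 49.3 CPM with DMSO and 66.6, 68.4 and 69.2 CPM with EPZ-5676; both were chosen after their values were seen. COL1A1 and LUM are also fibroblast markers. In the same list COL3A1 was not called and PDGFRA fell (99.7, 101 and 103 CPM with DMSO and 89.4, 93.00 and 86.96 CPM with EPZ-5676), while COL1A2 and DCN were not measured. Whether other cells had a part in the rise was not tested. In bulk RNA, more cells of a type and more RNA per cell cannot be told apart.

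The axis of insulin-like growth factors changed in both directions. Of its 10 tested genes, IGFBP2, IGFBP3, IGFBP4, IGFBP6 and IRS2 rose and IGF1R and IGF2R fell, while IGFBP7, INSR and IRS1 were not called. IGFBP3, the main carrier in blood, was at 0.381, 0.415 and 0.399 CPM with DMSO and 1.897, 1.62 and 2.34 CPM with EPZ-5676, a log2 change of 2.29 (SE 0.29, adjusted p = 1.2e-09). IGFBP2 was at 1.09, 1.08 and 0.693 CPM with DMSO and 3.46, 2.93 and 3.04 CPM with EPZ-5676 and IGFBP4 at 8.39, 8.23 and 9.27 CPM with DMSO and 13.7, 13.4 and 13.3 CPM with EPZ-5676. IGF1R was at 75.5, 73.2 and 73.2 CPM with DMSO and 57.6, 58.00 and 59.3 CPM with EPZ-5676, a log2 change of -0.34 (SE 0.03, adjusted p = 1.3e-13), and IGF2R at 258, 249 and 262 CPM with DMSO and 209.9, 207 and 213 CPM with EPZ-5676. Both receptors were named because they were the only falls in the list.

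Genes through which DOT1L acts in leukaemia showed no common direction. Of 20 tested targets of MLL fusions, 4 rose and 6 fell, and of 21 HOX genes 4 rose and 1 fell. Among the targets RUNX2, SENP6, MYC and MYB rose, and MEIS1, MEIS2, PBX3, CDK6, JMJD1C and CDKN2A fell. MEIS1 lost its call without DMSO replicate 2 (-0.15) or EPZ-5676 replicate 1 (-0.18) or 2 (-0.24). The called HOX genes were HOXB9, HOXD1, HOXD4 and HOXD13, higher, and HOXC8, lower, so no HOXA gene was called. MYB, a proto-oncogene of blood progenitors, was at 5.36, 5.30 and 5.44 CPM with DMSO and 12.2, 10.7 and 9.50 CPM with EPZ-5676, and MYC at 22.9, 22.6 and 22.6 CPM with DMSO and 31.9, 30.98 and 32.7 CPM with EPZ-5676, log2 changes of 1.01 and 0.49 (adjusted p = 3.0e-12 and 2.4e-11). PBX3, a HOX cofactor, was at 41.99, 43.1 and 41.5 CPM with DMSO and 29.99, 28.2 and 30.2 CPM with EPZ-5676, a log2 change of -0.52 (SE 0.05, adjusted p = 5.0e-14). HOXD13 was at 1.37, 1.04 and 1.21 CPM with DMSO and 3.01, 3.70 and 3.34 CPM with EPZ-5676 and HOXB9 at 7.19, 7.33 and 6.97 CPM with DMSO and 11.8, 13.6 and 11.8 CPM with EPZ-5676; HOXD1 was at 22.99, 22.4 and 23.8 CPM with DMSO and 30.4, 29.1 and 32.3 CPM with EPZ-5676. These 3 homeobox genes rose, with no overlap between groups, as in 43.8% of all genes tested and 93.9% of those called higher.

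Signalling lists were split. In the Wnt list 5 of 25 rose and 6 fell. The 4 largest called changes at 1 CPM or more were rises in secreted regulators or receptors. DKK1, an inhibitor of LRP co-receptors, was at 19.6, 20.2 and 19.2 CPM with DMSO and 40.2, 39.9 and 41.9 CPM with EPZ-5676, a log2 change of 1.05 (SE 0.05, adjusted p = 5.5e-27). WIF1, which binds Wnt ligands, was at 1.81, 1.54 and 1.42 CPM with DMSO and 3.40, 3.38 and 4.22 CPM with EPZ-5676, NOTUM, which removes their lipid, at 0.839, 0.644 and 0.607 CPM with DMSO and 1.83, 1.48 and 1.55 CPM with EPZ-5676 and the R-spondin receptor LGR5 at 0.610, 0.685 and 0.728 CPM with DMSO and 1.95, 2.04 and 1.73 CPM with EPZ-5676. In the Notch list 5 of 18 rose and 7 fell; with scaling that follows the level 1 rose and 6 fell. JAG1, a Notch ligand, was at 185, 186 and 189.5 CPM with DMSO and 144, 139 and 141 CPM with EPZ-5676, a log2 change of -0.41 (SE 0.02, adjusted p = 2.0e-23). Among 37 semaphorins, ephrins and other guidance genes 11 rose and 6 fell. SEMA3C was at 0.229, 0.748 and 0.589 CPM with DMSO and 1.54, 1.67 and 2.03 CPM with EPZ-5676 and NTN4 at 6.92, 6.63 and 6.69 CPM with DMSO and 9.29, 9.53 and 9.99 CPM with EPZ-5676. CDKN1A (p21), which halts the cell cycle, was at 17.1, 14.3 and 15.5 CPM with DMSO and 23.3, 23.3 and 24.2 CPM with EPZ-5676, a log2 change of 0.59 (SE 0.07, adjusted p = 1.6e-11). CDKN2C (p18), which binds CDK4 and CDK6, was at 32.5, 30.9 and 33.3 CPM with DMSO and 25.3, 25.2 and 25.5 CPM with EPZ-5676. In the list of CDK inhibitors and p53 targets 4 of 28 rose and 7 fell; with scaling that follows the level the counts were 5 and 5.

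Falls were smaller, and no single pathway led them. TJP1 (ZO-1), which scaffolds tight junctions, was at 19.9, 20.4 and 17.02 CPM with DMSO and 12.3, 10.6 and 13.1 CPM with EPZ-5676. PARD3B, a polarity protein, was at 35.5, 35.5 and 36.03 CPM with DMSO and 22.5, 22.3 and 23.6 CPM with EPZ-5676, a log2 change of -0.65 (SE 0.05, adjusted p = 1.8e-16). GC, the plasma carrier of vitamin D, was at 49.1, 48.1 and 48.5 CPM with DMSO and 31.5, 32.7 and 31.4 CPM with EPZ-5676. APBB2 was at 79.8, 80.9 and 82.6 CPM with DMSO and 52.4, 53.1 and 56.3 CPM with EPZ-5676, with the smallest adjusted p of the 12 (2.4e-24). Another 6 had log2 changes from -0.55 to -0.58. They were HABP2, a plasma protease, MDGA2, SERPINF2, the plasma inhibitor of plasmin, DEPTOR, which binds mTOR, TET1, a DNA demethylase, and PTPRM, a receptor phosphatase.

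Hepatocyte transcription factors fell more often than they rose. Of 28 tested, 15 fell and 2, ONECUT2 and PROX1, rose, with a median log2 change of -0.09; 12 fell and 3 rose with scaling that follows the level. HNF4A, the nuclear receptor at the centre of the hepatocyte programme, was at 376, 384 and 383 CPM with DMSO and 335, 332 and 336 CPM with EPZ-5676, a log2 change of -0.19 (SE 0.02, adjusted p = 1.0e-14). It was chosen after its values were seen. ONECUT1 (HNF6) was at 14.9, 16.6 and 15.7 CPM with DMSO and 11.9, 12.02 and 10.97 CPM with EPZ-5676 and FOXA2 at 98.1, 105 and 96.7 CPM with DMSO and 82.6, 86.9 and 86.4 CPM with EPZ-5676. FOXA3 was at 46.5, 51.5 and 47.8 CPM with DMSO and 38.6, 40.7 and 40.5 CPM with EPZ-5676. Fetal liver and tumour markers fell in 10 of 18 cases and rose in 4, against 8 and 6 with scaling that follows the level. GPC3, a surface proteoglycan of liver tumours, was at 1486, 1477 and 1478 CPM with DMSO and 1227, 1269 and 1262 CPM with EPZ-5676, a log2 change of -0.24 (SE 0.01, adjusted p = 1.5e-29). PEG10 was at 1243, 1203 and 1210.5 CPM with DMSO and 1052, 1035 and 1043 CPM with EPZ-5676. IGF2BP3, an RNA-binding protein, was at 171, 168 and 175 CPM with DMSO and 145, 152 and 150.01 CPM with EPZ-5676, and IGF2 at 26.4, 26.1 and 22.2 CPM with DMSO and 17.8, 18.05 and 18.7 CPM with EPZ-5676. AFP (alpha-fetoprotein) was at 794, 786 and 783 CPM with DMSO and 776, 785 and 769 CPM with EPZ-5676 and did not pass the test (adjusted p = 0.24), but was called higher by 0.05 on the log2 scale with scaling that follows the level. It was chosen after its values were seen.

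Secreted liver proteins went both ways. Of 50 plasma protein genes 19 rose and 14 fell. SAA1, SAA2, ORM1, ORM2, CP, LBP, C3, CFB and SERPING1 were among the rises, and ALB, TF, SERPINA1, SERPINA3, SERPINC1, SERPINF2, GC, AMBP and CFI among the falls. LBP, which presents bacterial lipopolysaccharide, was at 13.4, 12.6 and 13.8 CPM with DMSO and 22.3, 20.9 and 21.8 CPM with EPZ-5676, a log2 change of 0.71 (SE 0.07, adjusted p = 7.4e-14). LCN2, which withholds iron from bacteria, was at 9.74, 9.78 and 10.7 CPM with DMSO and 15.5, 16.2 and 17.7 CPM with EPZ-5676. TF (transferrin) was at 4366, 4358 and 4374 CPM with DMSO and 3481, 3498 and 3499 CPM with EPZ-5676, a log2 change of -0.32 (SE 0.01, adjusted p = 3.9e-52) that is small but many times the replicate spread. ALB (albumin), chosen after its values were seen, was at 4904, 4824 and 4817 CPM with DMSO and 4529.99, 4560.3 and 4505 CPM with EPZ-5676, and its call was lost with scaling that follows the level (-0.01). Of 19 apolipoproteins and lipoprotein genes 7 fell and 2 rose. APOA1, the main protein of HDL, was at 945, 949 and 927 CPM with DMSO and 746, 742 and 738 CPM with EPZ-5676, a log2 change of -0.34 (SE 0.01, adjusted p = 7.7e-36). MTTP, which loads lipid onto APOB, was at 374, 371 and 362 CPM with DMSO and 305, 311 and 305 CPM with EPZ-5676. Of 50 genes of drug and bile acid metabolism 18 rose and 6 fell, with a median log2 change of 0.27. With scaling that follows the level 14 rose and 5 fell. CYP3A5 was at 0.762, 0.623 and 0.901 CPM with DMSO and 1.91, 2.16 and 2.56 CPM with EPZ-5676 and CYP2E1 at 2.27, 1.43 and 1.14 CPM with DMSO and 3.46, 4.26 and 3.32 CPM with EPZ-5676. SULT1E1, which sulphates oestrogen, was at 3.14, 3.80 and 3.93 CPM with DMSO and 7.66, 7.32 and 7.74 CPM with EPZ-5676. With DMSO these 3 named genes stood at 0.623 to 3.93 CPM, which need not hold for the other rises of the list. The cytochrome and AKR1C families hold close copies whose reads may be shared.

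Among metabolic lists, glycolysis fell most widely. Of 40 genes of glycolysis and hypoxia 26 fell and 6 rose, with a median log2 change of -0.14; 21 fell and 3 rose with scaling that follows the level. ENO1 (enolase) was at 2973, 2963 and 2935 CPM with DMSO and 2341, 2338 and 2323 CPM with EPZ-5676, a log2 change of -0.34 (SE 0.01, adjusted p = 6.0e-49). LDHA (lactate dehydrogenase) was at 4246, 4204 and 4211 CPM with DMSO and 3685, 3674 and 3593 CPM with EPZ-5676 and PGK1 at 393, 406 and 396 CPM with DMSO and 329.7, 328 and 322 CPM with EPZ-5676. The glucose transporter SLC2A1 was at 94.2, 90.2 and 91.1 CPM with DMSO and 75.4, 73.7 and 73.4 CPM with EPZ-5676, a log2 change of -0.31 (SE 0.03, adjusted p = 2.1e-14). The liver transporter SLC2A2 was at 7.51, 8.31 and 7.75 CPM with DMSO and 11.5, 12.1 and 11.4 CPM with EPZ-5676, a log2 change of 0.57 (SE 0.09, adjusted p = 8.7e-07). ENO1, LDHA, PGK1 and SLC2A1 were chosen after their values were seen. Sterol and fatty acid synthesis fell in 17 of 41 genes and rose in 6, and in 12 and 7 with that scaling. GPAM, which starts triglyceride synthesis, was at 74.9, 70.6 and 73.3 CPM with DMSO and 89.8, 89.9 and 88.8 CPM with EPZ-5676, a log2 change of 0.30 (SE 0.03, adjusted p = 2.2e-13). Fatty acid oxidation showed 8 rises and 11 falls in 33 genes, and 7 and 6 with scaling that follows the level. ACSL1, which activates fatty acids, was at 31.9, 30.5 and 33.3 CPM with DMSO and 58.05, 55.4 and 59.5 CPM with EPZ-5676, a log2 change of 0.85 (SE 0.04, adjusted p = 1.5e-26), and PDK4, which spares glucose, was at 4.59, 3.99 and 4.70 CPM with DMSO and 6.91, 7.44 and 6.45 CPM with EPZ-5676. Oxidative phosphorylation had 8 rises and 9 falls in 35 genes, but 14 rises and 4 falls with scaling that follows the level. SDHA was at 146, 148 and 145 CPM with DMSO and 122, 124 and 126 CPM with EPZ-5676 and NDUFV2 at 135, 138 and 127 CPM with DMSO and 147, 152 and 146 CPM with EPZ-5676.

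Replication and mitosis genes fell in 19 of 49 cases and rose in 6, a balance that flipped to 14 rises and 9 falls with scaling that follows the level. MKI67, the proliferation antigen, was at 733, 732 and 746 CPM with DMSO and 633, 635 and 633 CPM with EPZ-5676, a log2 change of -0.22 (SE 0.01, adjusted p = 4.6e-23). AURKA, a mitotic kinase, was at 231, 236 and 227 CPM with DMSO and 209, 201 and 205 CPM with EPZ-5676. CCNE2, a cyclin that brings cells into S phase, was at 10.1, 10.6 and 9.88 CPM with DMSO and 12.8, 13.8 and 14.3 CPM with EPZ-5676, and its rise was called. Of 35 repair genes 4 rose and 5 fell, and 6 rose and 1 fell with the other scaling. BRCA2 was at 65.2, 63.9 and 70.8 CPM with DMSO and 76.9, 71.4 and 76.1 CPM with EPZ-5676 and ATM at 96.9, 97.96 and 92.01 CPM with DMSO and 110.1, 104 and 99.7 CPM with EPZ-5676. The unfolded protein and ATF4 list had 7 rises and 15 falls in 42 genes, against 13 and 9 with scaling that follows the level. SLC7A5, an amino acid transporter, was at 125, 127 and 126 CPM with DMSO and 102, 100.01 and 99.6 CPM with EPZ-5676, and DDIT4 at 92.7, 89.7 and 90.5 CPM with DMSO and 74.4, 71.05 and 78.8 CPM with EPZ-5676. MANF, a secreted factor of the endoplasmic reticulum, was at 42.5, 42.9 and 39.4 CPM with DMSO and 49.6, 48.98 and 46.9 CPM with EPZ-5676. Of 50 ribosomal protein genes 14 rose and 8 fell, and 36 rose with scaling that follows the level, so their direction rests on the scaling. RPLP2 was at 628, 625 and 619.8 CPM with DMSO and 686, 683 and 681 CPM with EPZ-5676. Changes in this list stayed between -0.09 and 0.34 on the log2 scale.

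Called changes among chromatin genes were mostly small falls. Among the 28 genes of DOT1L and its partners 14 fell and MEN1 rose, with a median log2 change of -0.06, and 5 fell and 3 rose with scaling that follows the level. The rise of MEN1 was not called without DMSO replicate 2 (0.08) or without either of the treated replicates 1 and 3 (0.11 each). MLLT6, which had the lowest value of the list, was at 2.53, 4.88 and 4.47 CPM with DMSO and 1.84, 1.53 and 3.80 CPM with EPZ-5676, with overlapping groups. Its log2 change of -0.73 (SE 0.48, adjusted p = 0.34) did not pass the test, but was called with a replicate block (-0.77) and without EPZ-5676 replicate 3 (-1.23). DOT1L itself was at 51.8, 54.5 and 52.3 CPM with DMSO and 49.3, 51.1 and 47.6 CPM with EPZ-5676, a log2 change of -0.10 (SE 0.04, adjusted p = 0.049). The call was lost with DESeq2, with a replicate block and with scaling that follows the level. It was also lost without DMSO replicate 2 (-0.08) or 3 (-0.11) and without EPZ-5676 replicate 1 (-0.10) or 3 (-0.07). MLLT3 was at 19.8, 20.2 and 21.96 CPM with DMSO and 18.9, 16.6 and 15.7 CPM with EPZ-5676, the largest called change of the list, -0.28 (SE 0.07, adjusted p = 8.7e-04). AFF1, a scaffold of elongation complexes, was at 128, 123 and 126 CPM with DMSO and 112, 109 and 113 CPM with EPZ-5676, ELL2 at 129, 126 and 126 CPM with DMSO and 116, 114 and 116 CPM with EPZ-5676, and RTF1, a member of the PAF1 complex, at 91.2, 91.02 and 90.97 CPM with DMSO and 84.5, 80.3 and 81.03 CPM with EPZ-5676. KMT2A was at 134, 137 and 141 CPM with DMSO and 133, 129 and 130.3 CPM with EPZ-5676, a log2 change of -0.07 (SE 0.03, adjusted p = 0.022), a call lost with scaling that follows the level and when any of 3 libraries was left out (DMSO replicate 3 and the treated replicates 2 and 3). The kinase CDK9 was at 45.3, 47.3 and 46.5 CPM with DMSO and 47.4, 45.98 and 49.8 CPM with EPZ-5676 and did not pass the test (adjusted p = 0.49). In the list of histone methylation enzymes 23 of 48 fell and 0 rose by edgeR's adjusted test, 0 at an unadjusted p below 0.05 and 0 by DESeq2. Their median log2 change was -0.08, and 14 fell and 2 rose with scaling that follows the level. The demethylases KDM4B (60.6, 64.6 and 64.4 CPM with DMSO and 50.2, 52.6 and 48.8 CPM with EPZ-5676), KDM2B (51.2, 51.3 and 52.03 CPM with DMSO and 41.7, 43.96 and 43.4 CPM with EPZ-5676) and KDM5B (77.4, 75.7 and 76.2 CPM with DMSO and 65.3, 64.9 and 62.99 CPM with EPZ-5676) had the largest called falls. Among 17 genes of DNA methylation 3 rose and 3 fell. DNMT1, the maintenance enzyme, was at 259, 252 and 260.5 CPM with DMSO and 229.7, 229 and 231 CPM with EPZ-5676, and TET1 at 64.7, 67.8 and 63.9 CPM with DMSO and 43.97, 41.7 and 47.7 CPM with EPZ-5676, a log2 change of -0.56 (SE 0.04, adjusted p = 3.5e-18).

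Of 15 nuclear and tumour long noncoding RNAs tested, 7 rose and 1, HULC, fell. Among the rises KCNQ1OT1 lost its call with scaling that follows the level and without any of 3 libraries. NEAT1, the scaffold of paraspeckles, was at 82.4, 71.9 and 80.1 CPM with DMSO and 118, 120.4 and 116 CPM with EPZ-5676, a log2 change of 0.59 (SE 0.05, adjusted p = 9.5e-06). MALAT1, of nuclear speckles, was at 83.5, 78.2 and 80.97 CPM with DMSO and 117, 123 and 118 CPM with EPZ-5676, a log2 change of 0.56 (SE 0.03, adjusted p = 1.1e-29). Together these 2 RNAs took 0.0148 to 0.0163% of counts with DMSO and 0.0237 to 0.0247% with EPZ-5676. Iron genes were split, with 7 rises and 7 falls among 21. ID1, a target of BMP signals, was at 144, 146 and 150.1 CPM with DMSO and 225, 218 and 210.3 CPM with EPZ-5676, a log2 change of 0.57 (SE 0.02, adjusted p = 5.4e-31), and HMOX1, which breaks down haem, was at 25.2, 25.7 and 25.7 CPM with DMSO and 20.5, 19.5 and 18.4 CPM with EPZ-5676.

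The direction of change went with the level. Below a mean of 1 CPM 12.4% of genes rose and 0.654% fell, with a median log2 change of 0.37. Above 100 CPM 11.7% rose and 51.4% fell, with a median of -0.06. Between libraries of one group the medians of the same classes stayed between -0.02 and 0.03. Genes below 1 CPM summed to 956 to 971 CPM with DMSO and 1244 to 1263 CPM with EPZ-5676, and all 3 treated libraries lay above the controls. TMM factors were 0.982 to 0.984 for DMSO and 1.02 for EPZ-5676. The cause of this trend was not tested. A scaling that follows the level, chosen after seeing the data, removes the trend by design. It called 2298 rises and 2057 falls and kept 1718 of the 2274 rises and 1836 of the 2793 falls. All 24 of the largest rises and falls at 5 CPM or more, which were chosen as called and without overlap, stayed called in the same direction.

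**Figure D3:**
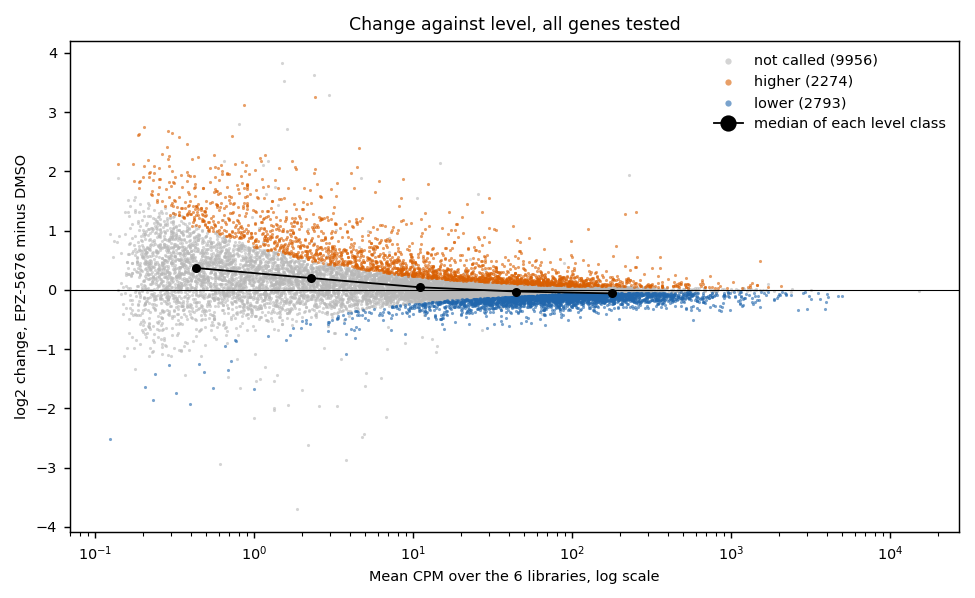
Log2 change (EPZ-5676 minus DMSO) of each of the 15023 genes tested against its mean CPM over the 6 libraries on a log axis; orange genes were called higher, blue lower, grey not called. The black line joins the medians of 5 level classes and goes from 0.37 below 1 CPM to -0.06 above 100 CPM.

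Gene span, the distance from the first to the last annotated base, went with the falls. The check covered the 10066 genes with at least 5 CPM and a match in GENCODE 29. In the fifth with the shortest genes (up to 11.96 kb) 17.8% rose and 13.2% fell. The share that fell was 18.1%, 25.1% and 33.8% in the next classes and 41.8% in the fifth with the longest genes (98.8 kb and more), where 10.3% rose. The median log2 change went from 0.01 to -0.08, and from 0.03 to -0.05 with scaling that follows the level. In the DOT1L knockout compared below, the medians of the shortest and longest classes were -0.11 and -0.03 without interferon. Under interferon they were -0.08 and -0.13. With the genes cut into 3 equal classes of GC content, the share that fell went from 12.3% to 44.5% in the GC-richest and in the GC-poorest from 14.4% to 36.8%. The 12 largest falls had a median span of 203 kb and the 12 largest rises one of 10.6 kb, beside 34.7 kb over all these genes. APBB2 (chromosome 4, 40810027 to 41216714) spans 407 kb, PARD3B (chromosome 2, 204545793 to 205620162) 1074 kb and TET1 (chromosome 10, 68560656 to 68694482) 134 kb. HDAC9 (chromosome 7, 18086949 to 19002416), at 915 kb, is a long gene among the rises. These are counts of genes, which are not independent replicates, and the pattern was noticed in these data.

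**Figure D4:**
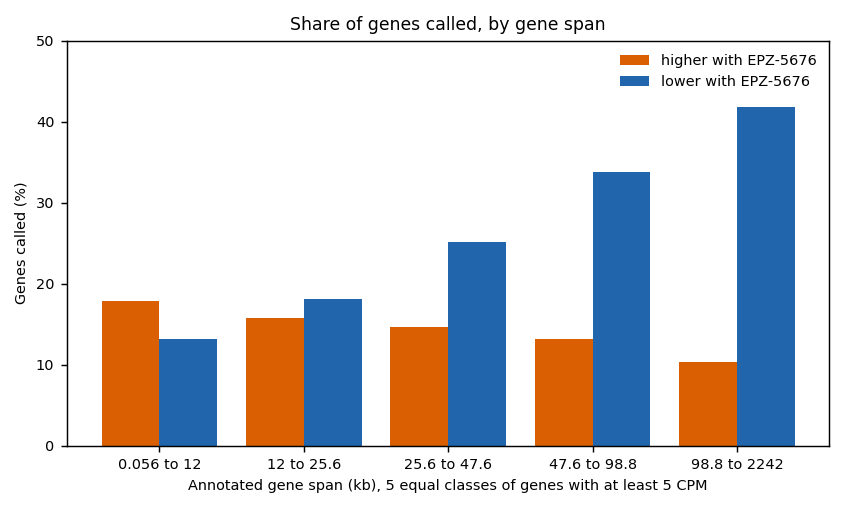
Share of genes called higher (orange) and lower (blue) with EPZ-5676 in 5 equal classes of annotated gene span, among 10066 genes with at least 5 CPM. The share called lower climbs from 13.2% in the shortest class to 41.8% in the longest, and the share called higher drops from 17.8% to 10.3%.

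The genes were then read in HuH-7 cells edited at DOT1L, to ask how far blocking the enzyme and cutting its gene moved the same transcripts. The comparisons share no control library. They differ in more than the agent: the 6 guide libraries without interferon held 19580588 to 22649969 counts, and NEAT1 and MALAT1 took 0.519 to 0.645% of them, while the guide libraries under interferon had 0.0213 to 0.0276%. Over the 10066 matched genes with at least 5 CPM, the knockout change without interferon also went with GC content (Spearman's correlation -0.44). The correlation was 0.04 for the knockout under interferon and -0.01 for the inhibitor. The part of these differences in the results, opposite and differing calls included, was not tested, so both knockout comparisons are given. Without interferon 12.5% of 16448 tested genes rose and 13.1% fell in cells with either DOT1L guide against sgNeg2. Of 14868 genes tested in both, 1061 rose in both, which is 46.7% of the inhibitor's rises and 54.7% of the knockout's, and 1116 fell in both (40% and 51.9%). Opposite calls were given to 148 genes. Under interferon, where 9.7% of genes rose and 15.7% fell in the knockout, 921 rose and 1428 fell in both. Across genes Pearson's r between the log2 changes was 0.54 without interferon and 0.51 with it, a description over genes that are not independent. The knockouts showed a trend with level too, which enters this r and the shared counts: the median log2 change went from 0.28 below 1 CPM to -0.04 above 100 CPM without interferon and from 0.16 to -0.11 with it.

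**Figure D5:**
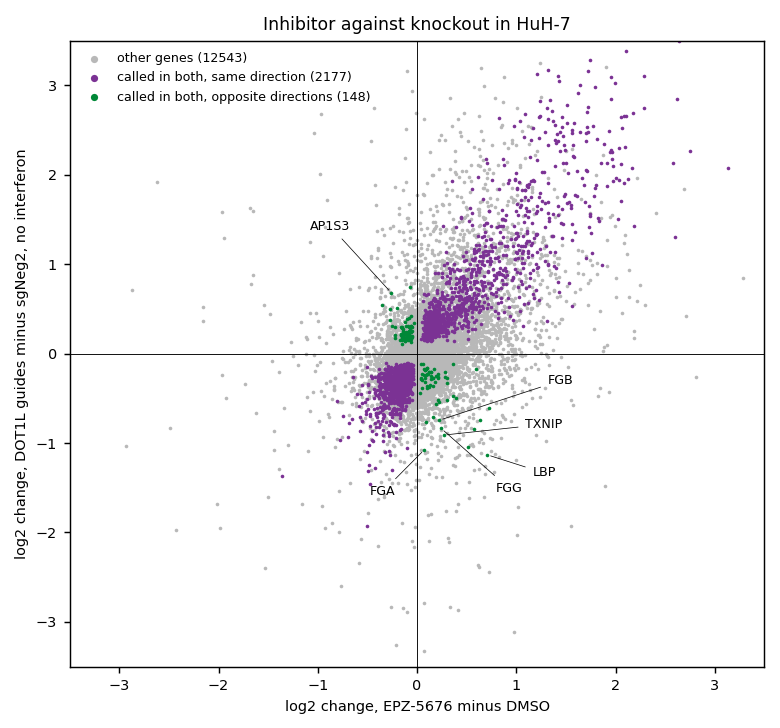
Log2 change with EPZ-5676 (horizontal) against log2 change with DOT1L guides without interferon (vertical) for 14868 genes tested in both, 34 of which lie outside the axes. Purple genes (2177) were called in both in the same direction and green genes (148) in opposite directions; the 6 largest called differences among the latter are named.

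Shared rises were led by genes at low levels. HAS2, CD109, GBP5, P2RY1, LUM and HAS2-AS1 had the largest rises called in both; HAS2 had log2 changes of 3.26 with the inhibitor and 3.57 with knockout, and CD109 had 2.40 and 3.72. PIGR had 1.56 and 1.63, and VNN2 1.79 and 1.86. The differences were -0.05 (SE 0.06) and -0.05 (SE 0.11), within 1 standard error of 0; against sg1 alone they were 0.06 and 0.13, and for PIGR the difference against the knockout under interferon was -0.32 and was called. Both genes were chosen for this test after their values were seen. Shared falls were led by MAB21L2, CD300LF, OSCP1, C4orf48, SUSD3 and LRRC7, all at low levels; CD300LF lost its call without any of 4 libraries. The Notch ligand JAG1 fell in both (-0.41 and -0.71), as did TET1 (-0.56 and -0.55). Over the genes called in both, the median log2 change of the rises was 0.48 with the inhibitor and 0.62 with knockout, and that of the falls -0.17 and -0.30. Among the 2177 genes called in both in the same direction the difference itself was called for 481, and in 460 of them the knockout change was the larger.

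A test of the difference between the inhibitor's and the knockout's effects, in 1 fit over 18 libraries, called 1782 of 15708 genes (11.3%), 1118 with a more positive change with the inhibitor (7.12%) and 664 with a more negative one (4.23%). CXCL8 rose by 1.56 with the inhibitor and 0.53 with knockout (difference 1.05, SE 0.13, adjusted p = 2.5e-05). CXCL10 rose by 1.87 and 0.99 (difference 0.89, adjusted p = 0.0029), and SAA2 by 1.31 and 0.36 (difference 0.97, adjusted p = 5.0e-07). CCL20, with 1.29 and 1.42, had a difference of -0.11 (SE 0.06, adjusted p = 0.24), which was called with the 12 libraries without interferon alone (-0.18) and without sg2 replicate 1 (-0.22), and turned to 0.54, also called, against the knockout under interferon. For CXCL10 the difference was no longer called without sgNeg2 replicate 1 (0.78). In the other direction SPP1 (osteopontin) had 0.83 with the inhibitor and 2.63 with knockout (difference -1.78, adjusted p = 5.4e-08), CEACAM7 2.22 and 3.901 (difference -1.65, adjusted p = 0.0034) and AHSG, a plasma glycoprotein, 0.35 and 1.93 (difference -1.56, adjusted p = 5.2e-08). AFP, which did not pass the test with the inhibitor, rose by 0.82 with knockout (difference -0.82, adjusted p = 3.7e-09). CXCL8, CXCL10, SAA2, CCL20 and AFP were chosen for this test after their values were seen. ENTPD1 (CD39), an ectonucleotidase, was at 31.6, 34.5 and 33.2 CPM with DMSO and 37.4, 36.7 and 34.2 CPM with EPZ-5676 and rose by 2.26 with knockout, and under interferon its knockout change was 0.02 and did not pass the test. Of the 50 ribosomal protein genes 30 fell in the knockout, beside 14 rises and 8 falls with the inhibitor. Interferon-stimulated genes rose in 19 of 40 cases there, beside 16 rises and 7 falls. How these counts differ was not tested. TRIM22, a restriction factor, had no count in either control-guide library without interferon, so no fold is given for it; with the inhibitor it went from 10, 10 and 14 counts to 2, 1 and 3.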

How the data were processed

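RNA-seq libraries were made from 1 µg of total RNA (RNeasy, VAHTS Universal V6 kit), per the labels' protocols. Of programs, the submitters' processing notes list HISAT2 2.2.1, Trim Galore, SAMtools 1.9 and DESeq2 1.36.0, and of builds mm10 beside hg38, without saying what each did. What counted the reads, on which annotation and with which strand setting is not stated in these sources. The authors deposited whole-number counts for each symbol, whose totals differ between libraries, so no normalization was undone. Samples were grouped by their labels. The comparisons, the members of the 39 lists (1242 entries) and the rule for named genes were chosen with earlier results of these data known.

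Counts were tested with edgeR 4.0.16 in R 4.3.3: genes kept by filterByExpr (minimum count 10, minimum total 15), TMM scaling, robust quasi-likelihood F tests, Benjamini-Hochberg adjustment over all genes tested, calls at an adjusted p below 0.05. The 6 libraries were fitted alone, the 12 guide libraries together (mean of sg1 and sg2 minus sgNeg2), and all 18 jointly for the difference. CPM are counts scaled to 1000000 per library with TMM factors; SE come from the F statistic. Named genes were DOT1L and its partners, the 12 largest called rises and 12 falls with at least 5 CPM, no overlap between groups and a current official symbol, up to 4 called members of each list with at least 1 CPM, and 6 genes per direction of the difference and of the shared calls; all other genes named were chosen after their values were seen. Alternatives were RLE scaling, DESeq2 1.42.0, no filter, a replicate block, leaving out each library, a 2-fold minimum, other knockout contrasts, and, chosen after seeing the data, scaling that follows the level (loess, limma 3.58.1) and genes of at least 5 CPM only. On simulated data with known changes the inhibitor test called 60.8% of genes changed by 1.25-fold, 78.8% by 1.5-fold and 94.8% by 2-fold, and 7.34% of its calls were false. The simulation changed 50 genes per fold, all with a mean above 1 CPM, as many up as down and without a trend with level. In the data 33.7% of genes were called and such a trend was present, so these rates need not hold there. Depth was 48912627 to 58628528 counts. Spans and GC came from GENCODE 29 (GRCh38), promoters from RefSeq (GRCh38.p14). Mouse libraries were not used. Some genes that the rule for named genes picks are not reported here.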

Additional observations from a re-analysis of the deposited data

Results flagged for a closer look

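Of the 148 genes called in opposite directions with EPZ-5676 and with DOT1L knockout without interferon, the difference between the effects was itself called for 147, of which 142 had a mean of at least 5 CPM. The 6 with the largest differences are given here because the same contrast went opposite ways in the treated and the edited cells; they were chosen by that size after the values were seen, and the test is the joint quasi-likelihood fit over 18 libraries. LBP, a plasma protein that presents lipopolysaccharide, rose by 0.71 on the log2 scale with the inhibitor (13.4, 12.6 and 13.8 CPM with DMSO and 22.3, 20.9 and 21.8 CPM with EPZ-5676). In edited cells it was at 44.7 and 42.5 CPM with sgNeg2 and at 20.8, 19.3, 19.4 and 20.2 CPM with the DOT1L guides, a change of -1.13; under interferon the change was 0.11 and was not called. The difference was 1.86 (SE 0.11, adjusted p = 2.2e-10).

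All 3 fibrinogen chain genes, which lie together and feed 1 clotting protein, belong here. FGA was at 427, 414 and 424 CPM with DMSO and 447, 438 and 447 CPM with EPZ-5676, and at 249.97 and 254 CPM with sgNeg2 and 105, 104, 137 and 138 CPM with the DOT1L guides, a difference of 1.17 (SE 0.05, adjusted p = 1.8e-13). FGG was at 318, 317 and 315 CPM with DMSO and 373, 374 and 378 CPM with EPZ-5676, and its knockout change was -0.84, a difference of 1.10 (adjusted p = 3.9e-11). FGB was at 143, 143 and 146 CPM with DMSO and 169, 169 and 167 CPM with EPZ-5676, and its knockout change was -0.75, a difference of 0.99 (adjusted p = 4.0e-07). Under interferon the direction of the knockout effect on all 3 turned: 0.61 for FGA (90.6 and 87.2 CPM with sgNeg2, 141, 144, 132 and 128 CPM with the guides), 0.37 for FGG and 1.04 for FGB, so the opposition to the inhibitor held only against the knockout without interferon.

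TXNIP, an inhibitor of thioredoxin and glucose uptake, was at 50.5, 50.2 and 50.8 CPM with DMSO and 61.5, 61.5 and 59.9 CPM with EPZ-5676 and had a called knockout change of -0.91, a difference of 1.20 (SE 0.07, adjusted p = 2.2e-10); its knockout change under interferon was -0.25 (adjusted p = 0.013). AP1S3, an adaptor subunit, was at 11.5, 12.4 and 12.8 CPM with DMSO and 10.5, 10.3 and 9.83 CPM with EPZ-5676 and rose by 0.68 with knockout, a difference of -0.92 (adjusted p = 0.0024). Its inhibitor call was lost without DMSO replicate 3 (-0.22) or EPZ-5676 replicate 3 (-0.23), and its difference against the knockout under interferon was -0.05 and not called. Of the 142 genes, 20 were also called in the knockout's direction under interferon.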

How the results depend on the processing

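Leaving out 1 library at a time gave 1862 to 2033 rises and 2431 to 2626 falls with EPZ-5676, against 2274 and 2793. The count of differing genes between inhibitor and knockout, 1782, moved from 857 (without sgNeg2 replicate 2) to 4574 (without sg2 replicate 1), and was 931 without sgNeg2 replicate 1 and 1186 without EPZ-5676 replicate 1; it was 1165 against the knockout under interferon and 1022 with sg1 alone. Genes higher in both ran from 617 (without sgNeg2 replicate 2) to 1198, with 646 without sgNeg2 replicate 1, and genes lower in both from 612 (without sgNeg2 replicate 1) to 1397. The 2 sg2 libraries without interferon differed from each other more than any other pair of HuH-7 replicates. Chi-square per degree of freedom between their counts was 27.2, against 2.93 to 7.88 for the other pairs. A minimum of 2-fold left 415 rises and 14 falls. Scaling that follows the level changed the split of calls from 44.9% to 52.8% higher, and turned AFP (0.052), CDC73 (0.0046), LEO1 (0.045), PAF1 (0.042), PSIP1 (0.014) and SKP1 (0.035). Without single libraries small changes turned sign: SKP1 ran from -0.044 to 0.0041, ELL from -0.059 to 0.018, LEO1 from -0.026 to 0.037 and PAF1 from -0.034 to 0.029. Against the knockout under interferon the difference turned for CCL20 (0.54), DENND1C (-0.57), ENTPD1 (0.081), FGA (-0.57), FGB (-0.84) and FGG (-0.15), and with sg1 alone for PIGR (0.057) and VNN2 (0.13). The cause was not tested. RLE scaling and no filter kept direction and call for all 245 gene values of the inhibitor comparison, and DESeq2 for 240. All 264 values of the 24 largest changes at 5 CPM or more, which were chosen as called and without overlap, kept both under these alternatives. In genes below 1 CPM, counts limit what could be called.

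Replicate numbers pair nothing in the labels. Residuals of same-numbered DMSO and EPZ-5676 libraries correlated at 0.036, 0.026 and 0.017, each best with its own number, a hint from the data only. With a replicate block 2260 genes rose and 2740 fell, 1437 differed from the knockout, and 1028 and 1070 were higher and lower in both.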

Other observations

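The genes in this section were chosen after their values were seen. Several complement genes, whose products the liver secretes, rose with EPZ-5676, while CFI fell; no list of the routes was counted. C3, the central component, was at 1274, 1265 and 1288 CPM with DMSO and 1782, 1770.5 and 1792 CPM with EPZ-5676, a log2 change of 0.48 (SE 0.01, adjusted p = 3.9e-52). C1S was at 52.7, 50.4 and 48.4 CPM with DMSO and 80.6, 82.7 and 82.5 CPM with EPZ-5676 and C1R at 37.01, 37.9 and 35.2 CPM with DMSO and 56.5, 60.2 and 57.02 CPM with EPZ-5676, log2 changes of 0.70 and 0.66. C4BPA, which restrains the classical route, was at 34.4, 34.9 and 33.5 CPM with DMSO and 56.7, 61.2 and 62.6 CPM with EPZ-5676, and MASP1, a protease of the lectin route, at 88.5, 86.7 and 94.02 CPM with DMSO and 115, 116 and 118 CPM with EPZ-5676. A2M, a broad protease trap, was at 10.8, 12.6 and 12.3 CPM with DMSO and 26.2, 25.99 and 24.7 CPM with EPZ-5676. In each of these genes every treated library lay above every control. Groups did not overlap in 43.8% of all genes tested and in 93.9% of those called higher.

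Other genes with called rises are known from epithelia. Such genes also fell: the tight junction gene TJP1 and the epithelial marker EPCAM were called lower. EPCAM lost its call with scaling that follows the level and without some single libraries. MUC13, a transmembrane mucin, was at 28.5, 26.7 and 27.02 CPM with DMSO and 55.8, 57.4 and 60.1 CPM with EPZ-5676, a log2 change of 1.08 (SE 0.05, adjusted p = 1.7e-31). DEFB1, an antimicrobial peptide, was at 22.5, 21.9 and 21.1 CPM with DMSO and 37.2, 39.2 and 38.5 CPM with EPZ-5676, and EHF, an epithelial ETS factor, at 20.7, 19.3 and 18.7 CPM with DMSO and 35.4, 35.7 and 38.02 CPM with EPZ-5676. SOD2, the mitochondrial superoxide dismutase, was at 207, 204 and 208 CPM with DMSO and 306, 304 and 298 CPM with EPZ-5676, and ZC3H12A, a ribonuclease that degrades cytokine messages, at 17.04, 19.01 and 17.5 CPM with DMSO and 30.8, 36.1 and 32.4 CPM with EPZ-5676; both are known targets of NF-kappaB. Cytoskeletal genes typical of neurons rose beside TUBB2B: MAP1B was at 21.5, 20.6 and 24.2 CPM with DMSO and 44.3, 44.4 and 44.5 CPM with EPZ-5676 and TUBA1A at 5.51, 5.15 and 5.29 CPM with DMSO and 13.3, 10.7 and 12.1 CPM with EPZ-5676, the latter with near-identical relatives that make its count uncertain. Of collagens, COL2A1 was at 283, 287 and 298 CPM with DMSO and 429, 425 and 415 CPM with EPZ-5676 and COL14A1 at 681, 670.4 and 669.8 CPM with DMSO and 478, 476 and 473 CPM with EPZ-5676, log2 changes of 0.55 and -0.50. KLB, the co-receptor of FGF19 and FGF21, was at 228, 233 and 226 CPM with DMSO and 166, 164 and 161 CPM with EPZ-5676, a log2 change of -0.49 (SE 0.02, adjusted p = 3.9e-29). ID3, which rose like ID1, was at 10.9, 11.5 and 11.9 CPM with DMSO and 25.1, 21.4 and 22.6 CPM with EPZ-5676.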
